A study of Homo sapiens with 6 samples.

Results

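The genes described here are 31 direct transcriptional targets of p53, chosen by name and read from the rows of the deposited table whose gene name equalled a member. All 31 were found once each among 60612 genes. The tumour suppressor p53 is a transcription factor that is kept scarce by the ubiquitin ligase MDM2 and its partner MDM4. When DNA is damaged or other stress signals arrive, p53 accumulates and binds response elements near its targets, which then halt the cell cycle, start or restrain cell death, support DNA repair, or feed back on p53 itself.

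The study sequenced total RNA, depleted of ribosomal RNA, of HCT116, an established line of human colorectal cancer, in 3 samples given PLOD3 siRNA and 3 given the control siRNA si NC, each for 2 days. PLOD3 encodes a collagen lysyl hydroxylase, and the series asks about its part in the progression of colorectal cancer. All 6 samples came from the same line in the same medium, a DMEM with serum, and the labels list no DNA-damaging agent. The labels name a single PLOD3 siRNA group, so effects of that siRNA on other transcripts cannot be told apart from effects of lower PLOD3. The labels do not state that the replicates came from separate cultures, so the p-values measure how these samples varied, and that variation may be technical.

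The estimated counts summed to 55416555 to 71736017 per sample in PLOD3 siRNA and 57457602 to 76802428 in si NC. About 4 count units stood for 1 read pair, which gave 13854139 to 17934004 pairs in PLOD3 siRNA and 14364400 to 19200607 pairs in si NC. PLOD3 itself stood at 3.63 ± 0.364 FPKM in PLOD3 siRNA and 6.59 ± 0.501 FPKM in si NC (SD, n = 3 each), or 55.1% of the si NC mean (log2 -0.85, edgeR adjusted p = 0.00350). The PLOD3 difference was smaller with the correction for transcript GC content described below (log2 -0.55, edgeR adjusted p = 0.00660). FPKM are fragments scaled to transcript length and sequencing depth. Of 8 markers of colon epithelium 6 were at 1 FPKM or more in every sample, and VIL1 and LGALS4 were below 1 FPKM in all of them. The summed level of these 8 markers was 562 to 638 FPKM in PLOD3 siRNA and 666 to 719.6 FPKM in si NC. For 8 fibroblast markers the sum was 3.55 to 4.01 FPKM in PLOD3 siRNA and 5.09 to 5.89 FPKM in si NC, and for 8 leukocyte markers 1.72 to 1.85 FPKM in PLOD3 siRNA and 0.986 to 1.87 FPKM in si NC. For 6 endothelial markers it was 0.152 to 0.163 FPKM in PLOD3 siRNA and 0.110 to 0.315 FPKM in si NC. Of the 8 fibroblast markers only COL1A1 and ACTA2 were at 1 FPKM or more in every sample. All samples came from a cultured line, so these sums describe marker RNA and are not shares of cell types. In bulk RNA, fewer cells that express a marker and less RNA per cell cannot be told apart.

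The p53 response element is a pair of decamers, each made of purines, a C, A or T letters, a G and pyrimidines. Promoter windows of RefSeq (GRCh38.p14), which run from 250 bases before to 50 bases after a transcript start, were scanned for this element of 20 bases with no spacer and at most 2 letters off. The element reads the same on both strands, so the scan covers both. Windows existed for 26 of the 31 genes, and 4 of those genes (15.4%) had a window with a match, against 0.820% of all 27305 genes with a window. The 26 genes had 44 windows and all genes had 35116, and by window the shares were 11.4% and 0.649%. The members were listed as direct targets of p53, so their higher share of matches is not an independent result. The match is a description of the sequence and says nothing on binding in these cells. The 4 windows are shown because they carry the element next to a transcript start, with the match in capitals, 5′ to 3′ on the plus strand.
FAS: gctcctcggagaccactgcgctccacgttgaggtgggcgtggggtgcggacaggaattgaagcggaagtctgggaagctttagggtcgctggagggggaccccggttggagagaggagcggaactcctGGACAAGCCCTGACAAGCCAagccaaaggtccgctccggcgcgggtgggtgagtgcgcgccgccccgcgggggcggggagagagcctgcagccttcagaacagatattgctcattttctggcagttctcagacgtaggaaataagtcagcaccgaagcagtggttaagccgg
MDM2: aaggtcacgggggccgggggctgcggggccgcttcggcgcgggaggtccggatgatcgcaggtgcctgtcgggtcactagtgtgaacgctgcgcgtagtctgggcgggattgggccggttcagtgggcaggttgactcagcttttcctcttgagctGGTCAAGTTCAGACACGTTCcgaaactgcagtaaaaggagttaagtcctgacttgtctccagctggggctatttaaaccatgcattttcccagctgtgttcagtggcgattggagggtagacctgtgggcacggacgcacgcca
AEN: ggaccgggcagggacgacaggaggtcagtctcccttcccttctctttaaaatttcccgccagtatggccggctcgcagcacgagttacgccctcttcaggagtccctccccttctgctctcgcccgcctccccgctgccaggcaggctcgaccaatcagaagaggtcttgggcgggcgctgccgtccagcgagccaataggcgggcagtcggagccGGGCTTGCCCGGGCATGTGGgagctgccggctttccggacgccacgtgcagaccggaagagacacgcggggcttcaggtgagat
DDB2: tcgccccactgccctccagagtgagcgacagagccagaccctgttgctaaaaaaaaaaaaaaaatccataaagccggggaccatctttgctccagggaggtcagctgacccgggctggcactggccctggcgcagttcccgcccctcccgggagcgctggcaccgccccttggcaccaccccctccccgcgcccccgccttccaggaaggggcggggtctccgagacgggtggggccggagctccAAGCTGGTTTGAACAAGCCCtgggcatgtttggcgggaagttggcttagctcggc
The FAS window is chr10:88991181-88991480, with the element at 88991309 to 88991328, and it serves a transcript that starts inside the gene. The MDM2 window is chr12:68808767-68809066, also at a start inside the gene, with the element at 68808923 to 68808942. The AEN window is chr15:88621090-88621389 and its element, at 88621306 to 88621325, lies just before the first start of the gene. The DDB2 window is chr11:47214724-47215023, at a start inside the gene, and the element at 47214969 to 47214988 begins 5 bases before that start and has 1 letter off. FAS, MDM2 and AEN rose in PLOD3 siRNA, whereas DDB2 did not pass the test. At up to 3 letters off, 10 of the 26 genes (38.5%) had a match, against 6.39% of all genes, and among these SESN1, FBXW7 and FDXR rose, GDF15 and XPC fell and KITLG did not pass.

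More of the p53 targets rose than fell, and most changes were modest. Of the 31 genes, 30 passed the filter of a mean of 1 FPKM over all samples and were tested. Of the 30, 14 were higher in PLOD3 siRNA and 4 were lower at an adjusted p under 0.05 (edgeR's quasi-likelihood test, Benjamini-Hochberg over 12000 genes). The same test called 35.5% of all genes, 16.2% higher and 19.3% lower, so that the members called higher were 46.7% against 16.2% and those called lower 13.3% against 19.3%. The members and the further lists below were chosen with earlier results of these data known. Their contrasts with all genes are therefore not independent of the data. The median log2 fold change was 0.26 over the 30 genes and 0.00337 over all genes tested. Of the 14 that rose, 5 changed at least 1.5-fold, namely ZMAT3, FAS, TRIAP1, SESN1 and BLOC1S2, and POLH was just under that size at 1.499-fold. CCNG1 was the only one of the 4 that fell by as much. The values of the 2 groups did not overlap in 22 members, 18 higher and 4 lower, whereas 52.1% of all genes had separate groups, 24.6% higher and 27.5% lower. With 3 against 3 values the exact permutation test of a single gene cannot go below p = 0.1, two-sided. Separate groups give that value by construction, so the test adds nothing for these 22 members.

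The count of members called higher depended on the filter on level and on single libraries. At a mean of at least 5 FPKM 21 members were tested, of which 5 (23.8%) were higher and 4 (19.05%) lower in edgeR, against 19.6% and 22.2% of all 6095 genes tested there. The count of higher members was 7 without PLOD3 siRNA replicate 1, 8 without si NC replicate 3 and 9 without PLOD3 siRNA replicate 2, and 10 without each of the others, while the share of all genes called higher in these fits was 9.03% to 13.8%. The count of members called lower was 0 without PLOD3 siRNA replicate 1 or si NC replicate 3, 1 without PLOD3 siRNA replicate 2 or si NC replicate 2, 2 without PLOD3 siRNA replicate 3 and 3 without si NC replicate 1, while 12.6% to 16.8% of all genes were called lower. The 1 without PLOD3 siRNA replicate 2 was CDKN1A and 1 of the 3 without si NC replicate 1 was MDM4, neither of which was called with all samples. At an unadjusted p under 0.05, 5 members were lower without PLOD3 siRNA replicate 1 and 4 without si NC replicate 3. GADD45A, FAS, TRIAP1, ZMAT3, POLH, SESN1 and BLOC1S2 were called in all 6 of these fits.

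**Figure D1:**
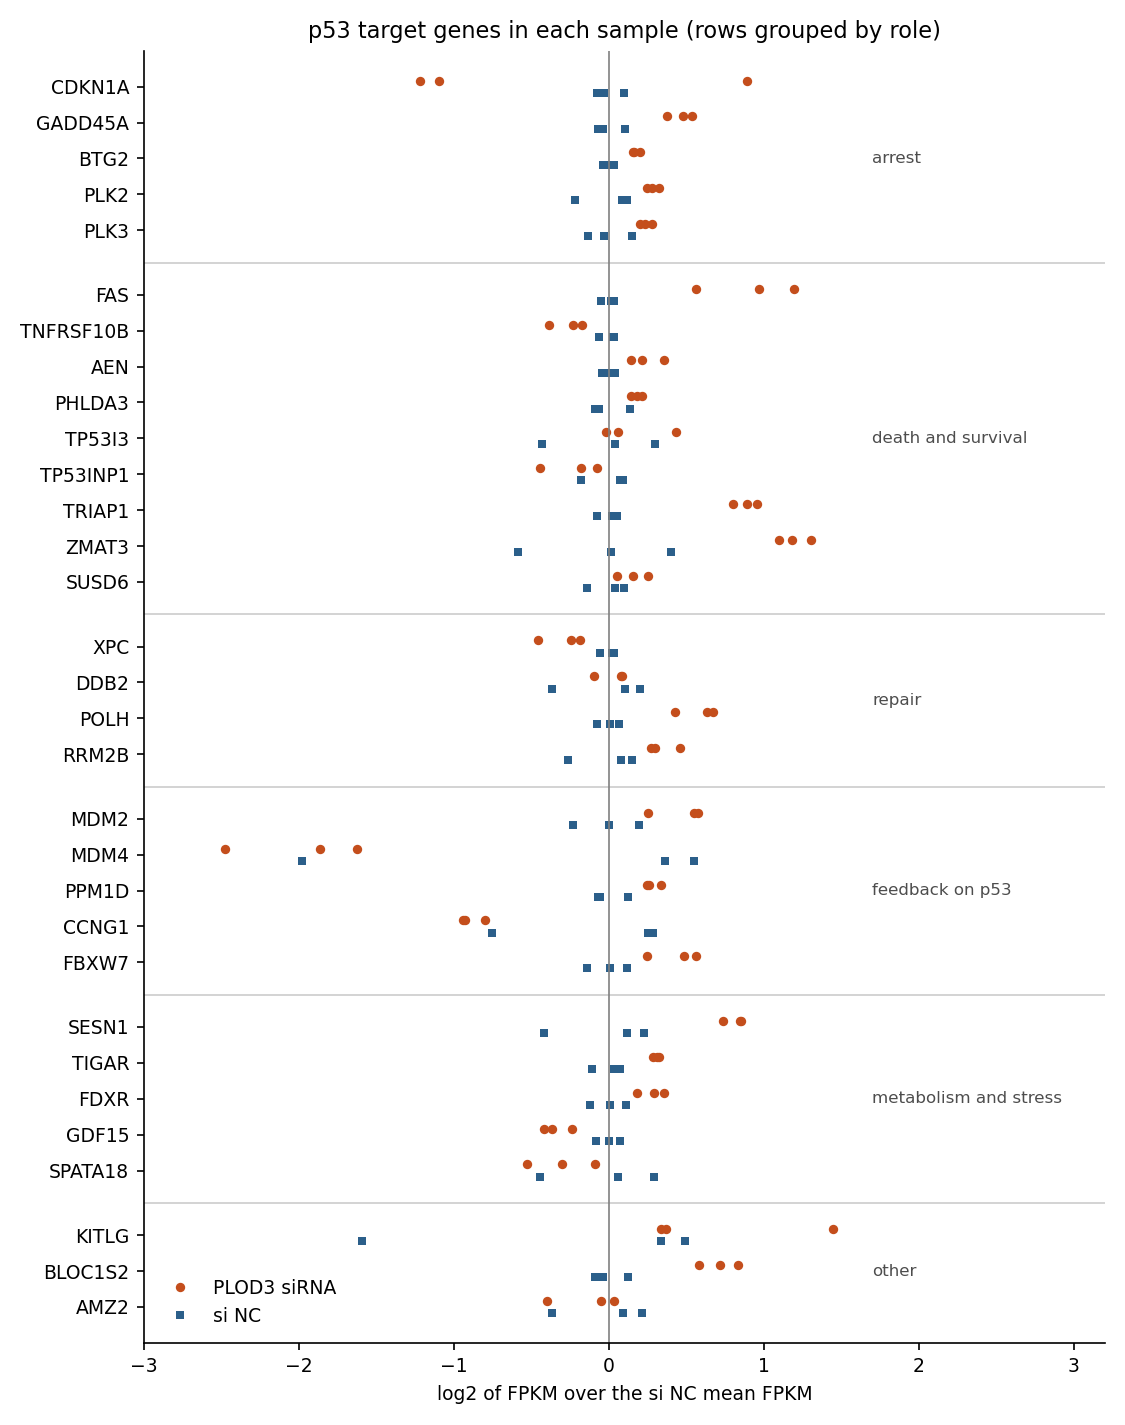
FPKM of each of the 31 genes in every sample, as the log2 of the value over the si NC mean of that gene. Circles are the 3 PLOD3 siRNA samples and squares the 3 si NC samples, with rows grouped by role. In 22 tested genes the circles and squares do not overlap, and CDKN1A, MDM4, CCNG1 and KITLG show single samples far from the others of their group.

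Among the 5 genes of cell cycle arrest, GADD45A alone rose, and CDKN1A split the PLOD3 siRNA samples. CDKN1A encodes p21, the inhibitor of cyclin-dependent kinases that carries most of the arrest downstream of p53 (chromosome 6, 36676460 to 36687337, plus strand, GRCh38). The 3 PLOD3 siRNA samples, in order of replicate, had 26.8, 116 and 29.2 FPKM, and the si NC samples had 61.1, 66.8 and 59.3 FPKM. Replicates 1 and 3 of PLOD3 siRNA were thus below every si NC sample and replicate 2 was above every one. The log2 fold change over all samples was -0.09 (SE 0.58, edgeR adjusted p = 0.916). Without PLOD3 siRNA replicate 2 it was -1.17 with an edgeR adjusted p of 0.00755, while it was 0.26 without replicate 1 and 0.23 without replicate 3 (adjusted p = 0.753 and 0.785). MYC, a transcription factor that is known to repress CDKN1A, split the same samples the other way, at 37.5, 3.14 and 38.9 FPKM in PLOD3 siRNA and 4.01, 5.01 and 4.17 FPKM in si NC. Over all samples MYC was higher (log2 2.57, edgeR adjusted p = 0.0487), a call that held in 1 of the 6 fits with a sample left out. MYC was named after its values were seen. PLOD3 siRNA replicate 2 stood at least 2-fold above or below both others of its group in 195 genes. The part of MYC in the CDKN1A values was not tested.

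GADD45A, a stress protein that binds PCNA and p21, was at 24.1, 23.2 and 21.5 FPKM in PLOD3 siRNA and 17.9, 16.2 and 15.8 FPKM in si NC. All 3 PLOD3 siRNA samples were above all si NC samples, and the gene rose by a log2 of 0.47 (SE 0.0842, edgeR adjusted p = 0.00844). BTG2, an antiproliferative adaptor of the CCR4-NOT deadenylase, was at 19.5, 18.9 and 18.8 FPKM in PLOD3 siRNA and 16.5, 17.2 and 17.0 FPKM in si NC. Its groups did not overlap, but the log2 difference of 0.18 did not pass (edgeR adjusted p = 0.0812). The polo-like kinase PLK2 was at 15.3, 14.5 and 14.8 FPKM in PLOD3 siRNA and 13.2, 10.5 and 13.0 FPKM in si NC, a log2 difference of 0.29 (edgeR adjusted p = 0.0513). PLK3, a related stress kinase, was at 5.96, 6.30 and 6.09 FPKM in PLOD3 siRNA and 5.09, 5.75 and 4.73 FPKM in si NC, a log2 difference of 0.24 (edgeR adjusted p = 0.128). In both kinases every PLOD3 siRNA sample was above every si NC sample.

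**Figure D2:**
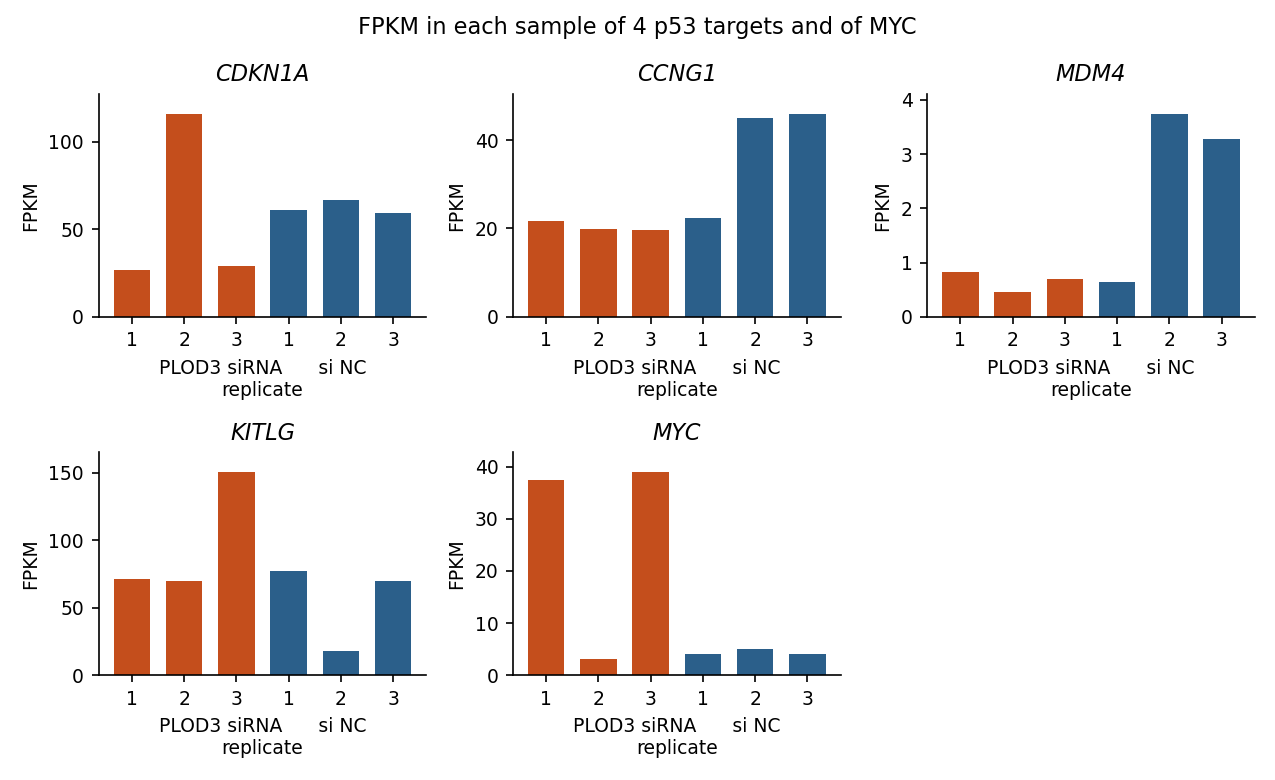
FPKM in each sample for CDKN1A, CCNG1, MDM4 and KITLG, the 4 members in which samples of a group differed over 2-fold, and for MYC. Each bar is 1 sample, PLOD3 siRNA at left and si NC at right, on axes that start at 0. CDKN1A is high in PLOD3 siRNA replicate 2, where MYC is low, and CCNG1 and MDM4 are low in si NC replicate 1.

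Of the 9 genes of cell death and survival 4 rose and 1 fell, and the risers act on both sides. Over all genes tested 16.2% were higher and 19.3% lower. FAS, the receptor for FAS ligand, was at 4.23, 4.94 and 3.19 FPKM in PLOD3 siRNA and 2.21, 2.08 and 2.18 FPKM in si NC. The samples of PLOD3 siRNA were all higher (log2 0.94, SE 0.178, edgeR adjusted p = 0.0100). The other death receptor of the group, TNFRSF10B, which binds TRAIL, was at 21.6, 18.6 and 20.7 FPKM in PLOD3 siRNA and 24.8, 23.3 and 24.9 FPKM in si NC. It fell by 0.26 on the log2 scale (SE 0.0658, edgeR adjusted p = 0.0259) and kept the call in 1 of 6 fits with a sample left out (adjusted p = 0.0388 to 0.0946). TRIAP1, a small mitochondrial protein that restrains apoptosis, was at 42.3, 44.2 and 39.8 FPKM in PLOD3 siRNA and 23.1, 21.7 and 23.7 FPKM in si NC. It had the smallest p of the members, and its groups lay far apart (log2 0.89, SE 0.0833, edgeR adjusted p = 0.00239).

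ZMAT3, a zinc finger protein that binds RNA, had the highest fold change of the members tested. It was at 2.45, 2.24 and 2.12 FPKM in PLOD3 siRNA and 1.00, 0.660 and 1.31 FPKM in si NC, or 2.30-fold higher (log2 1.20, SE 0.236, edgeR adjusted p = 0.0112). AEN, a nuclease of apoptosis, was at 14.4, 12.4 and 13.0 FPKM in PLOD3 siRNA and 10.9, 11.6 and 11.3 FPKM in si NC. The groups were separate, with a log2 fold change of 0.24 (edgeR adjusted p = 0.0475) that was called in 0 of the 6 fits with a sample left out (adjusted p = 0.0522 to 0.154).

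The remaining 4 death genes did not pass. PHLDA3, an inhibitor of AKT signalling, was at 9.55, 9.79 and 10.0 FPKM in PLOD3 siRNA and 8.28, 9.53 and 8.14 FPKM in si NC (log2 0.18, edgeR adjusted p = 0.196). TP53I3, a quinone oxidoreductase, was at 4.10, 4.32 and 5.61 FPKM in PLOD3 siRNA and 5.10, 4.28 and 3.08 FPKM in si NC (log2 0.17, edgeR adjusted p = 0.542). Only PHLDA3 of these had separate groups. TP53INP1, a stress protein with roles in autophagy and death, was at 6.35, 5.29 and 6.82 FPKM in PLOD3 siRNA and 7.58, 6.36 and 7.66 FPKM in si NC (log2 -0.22, edgeR adjusted p = 0.153). SUSD6, a membrane protein also called DRAGO, was at 2.77, 2.58 and 2.96 FPKM in PLOD3 siRNA and 2.55, 2.25 and 2.66 FPKM in si NC (log2 0.16, edgeR adjusted p = 0.232). In TP53INP1, TP53I3 and SUSD6 the groups overlapped.

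The 4 repair genes went different ways. POLH, the polymerase that copies past ultraviolet lesions, was at 5.61, 4.74 and 5.47 FPKM in PLOD3 siRNA and 3.69, 3.54 and 3.34 FPKM in si NC. It rose with no overlap of the groups (log2 0.58, SE 0.0800, edgeR adjusted p = 0.00426). RRM2B, the p53-dependent small subunit of ribonucleotide reductase, was at 17.1, 15.3 and 15.0 FPKM in PLOD3 siRNA and 13.8, 10.4 and 13.1 FPKM in si NC. It rose by 0.35 with an edgeR adjusted p of 0.0491, a call that was kept in 0 of the 6 fits with a sample left out (adjusted p = 0.0558 to 0.141). XPC, the damage sensor of global nucleotide excision repair, was at 11.8, 10.2 and 12.4 FPKM in PLOD3 siRNA and 14.3, 14.4 and 13.5 FPKM in si NC. It fell by 0.29 on the log2 scale (edgeR adjusted p = 0.0299) and kept the call in 1 of those 6 fits (adjusted p = 0.0356 to 0.0802). DDB2, which finds ultraviolet damage in chromatin and works upstream of XPC, was at 10.1, 8.89 and 10.1 FPKM in PLOD3 siRNA and 10.2, 10.9 and 7.38 FPKM in si NC. Its groups overlapped, with a log2 difference of 0.03 (SE 0.149, edgeR adjusted p = 0.897).

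Among the 5 genes that feed back on p53, the ligase MDM2 rose together with PPM1D and FBXW7, and CCNG1 fell. The shares over all genes tested were 16.2% higher and 19.3% lower. MDM2 was at 11.8, 9.60 and 12.0 FPKM in PLOD3 siRNA and 9.23, 6.86 and 8.05 FPKM in si NC. Every PLOD3 siRNA sample was higher (log2 0.47, SE 0.116, edgeR adjusted p = 0.0225), and the call held in 3 of the 6 fits with a sample left out (adjusted p = 0.0224 to 0.0717). PPM1D, the phosphatase that switches off p53 and its kinases, was at 12.8, 12.1 and 12.0 FPKM in PLOD3 siRNA and 11.0, 9.66 and 9.72 FPKM in si NC (log2 0.29, edgeR adjusted p = 0.0236). That call held in 2 of the 6 fits (adjusted p = 0.0295 to 0.0823). FBXW7, the substrate receptor of a ubiquitin ligase that degrades MYC and cyclin E, was at 2.47, 1.98 and 2.34 FPKM in PLOD3 siRNA and 1.82, 1.52 and 1.68 FPKM in si NC (log2 0.44, edgeR adjusted p = 0.0177). It held in 4 of the 6 fits (adjusted p = 0.0230 to 0.0608).

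CCNG1, or cyclin G1, recruits a phosphatase to MDM2. It was at 21.7, 19.9 and 19.7 FPKM in PLOD3 siRNA and 22.4, 45.0 and 45.9 FPKM in si NC, so that si NC replicate 1 lay beside the PLOD3 siRNA samples. The log2 fold change was -0.89 (SE 0.276, edgeR adjusted p = 0.0463), and the adjusted p was 0.00552 without si NC replicate 1 and 0.102 to 0.133 without each of the others. MDM4, the p53 inhibitor that pairs with MDM2, had the same layout, at 0.828, 0.459 and 0.702 FPKM in PLOD3 siRNA and 0.650, 3.74 and 3.28 FPKM in si NC. Its groups overlapped through si NC replicate 1, and its log2 difference of -1.95 just missed the threshold (SE 0.621, edgeR adjusted p = 0.0501). It was called lower in 3 of 11 alternative settings with all samples. These were DESeq2 (adjusted p = 0.0221), edgeR with library totals only and edgeR on counts divided by 4. Without si NC replicate 1 the MDM4 difference was -2.41 with an edgeR adjusted p of 0.00833, and without each of the others the adjusted p was 0.0984 to 0.141.

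The 4 tested genes of metabolism and stress were all called, 3 higher and 1 lower, while 35.5% of all genes tested were called. With the GC correction described below, TIGAR and GDF15 had no call (edgeR adjusted p = 0.0864 and 0.983). SESN1, a sestrin that restrains mTORC1, was at 5.87, 5.85 and 5.42 FPKM in PLOD3 siRNA and 3.52, 2.43 and 3.80 FPKM in si NC, with no overlap (log2 0.82, SE 0.167, edgeR adjusted p = 0.0126). TIGAR, a phosphatase that lowers glycolytic flux, was at 3.68, 3.65 and 3.58 FPKM in PLOD3 siRNA and 3.01, 2.72 and 3.08 FPKM in si NC (log2 0.31, edgeR adjusted p = 0.0264). FDXR, the reductase that hands electrons to mitochondrial ferredoxin, was at 16.1, 14.9 and 16.9 FPKM in PLOD3 siRNA and 13.2, 14.2 and 12.1 FPKM in si NC (log2 0.28, edgeR adjusted p = 0.0433). In the fits with a sample left out TIGAR was called in 2 of 6 (adjusted p = 0.0443 to 0.0711) and FDXR in 1 of 6 (0.0229 to 0.119). GDF15, a secreted stress cytokine, was at 42.7, 44.2 and 48.3 FPKM in PLOD3 siRNA and 53.8, 60.0 and 57.1 FPKM in si NC. All PLOD3 siRNA samples were lower (log2 -0.33, edgeR adjusted p = 0.0247), and the call held in 2 of 6 such fits (adjusted p = 0.0267 to 0.0844). SPATA18, a protein of mitochondrial quality control, stayed under the filter at 0.102 to 0.138 FPKM in PLOD3 siRNA and 0.108 to 0.179 FPKM in si NC, and in a fit with no filter its edgeR adjusted p was 0.682.

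Of the 3 members with other roles, BLOC1S2, a subunit of a complex that sorts cargo to lysosome-related organelles, rose. It was at 10.1, 11.0 and 9.20 FPKM in PLOD3 siRNA and 6.70, 5.997 and 5.78 FPKM in si NC, with separate groups (log2 0.72, SE 0.111, edgeR adjusted p = 0.00561). KITLG, the ligand of the receptor KIT, ranged from 69.6 to 150.4 FPKM in PLOD3 siRNA and from 18.3 to 77.6 FPKM in si NC, and averaged 97.1 ± 46.2 FPKM in PLOD3 siRNA and 55.2 ± 32.2 FPKM in si NC (SD, n = 3 each). The log2 difference of 0.82 did not pass (SE 0.550, edgeR adjusted p = 0.282). AMZ2, a metalloprotease, averaged 15.4 ± 2.34 FPKM in PLOD3 siRNA and 16.8 ± 3.35 FPKM in si NC (SD, n = 3 each, log2 -0.12, edgeR adjusted p = 0.650).

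**Figure D3:**
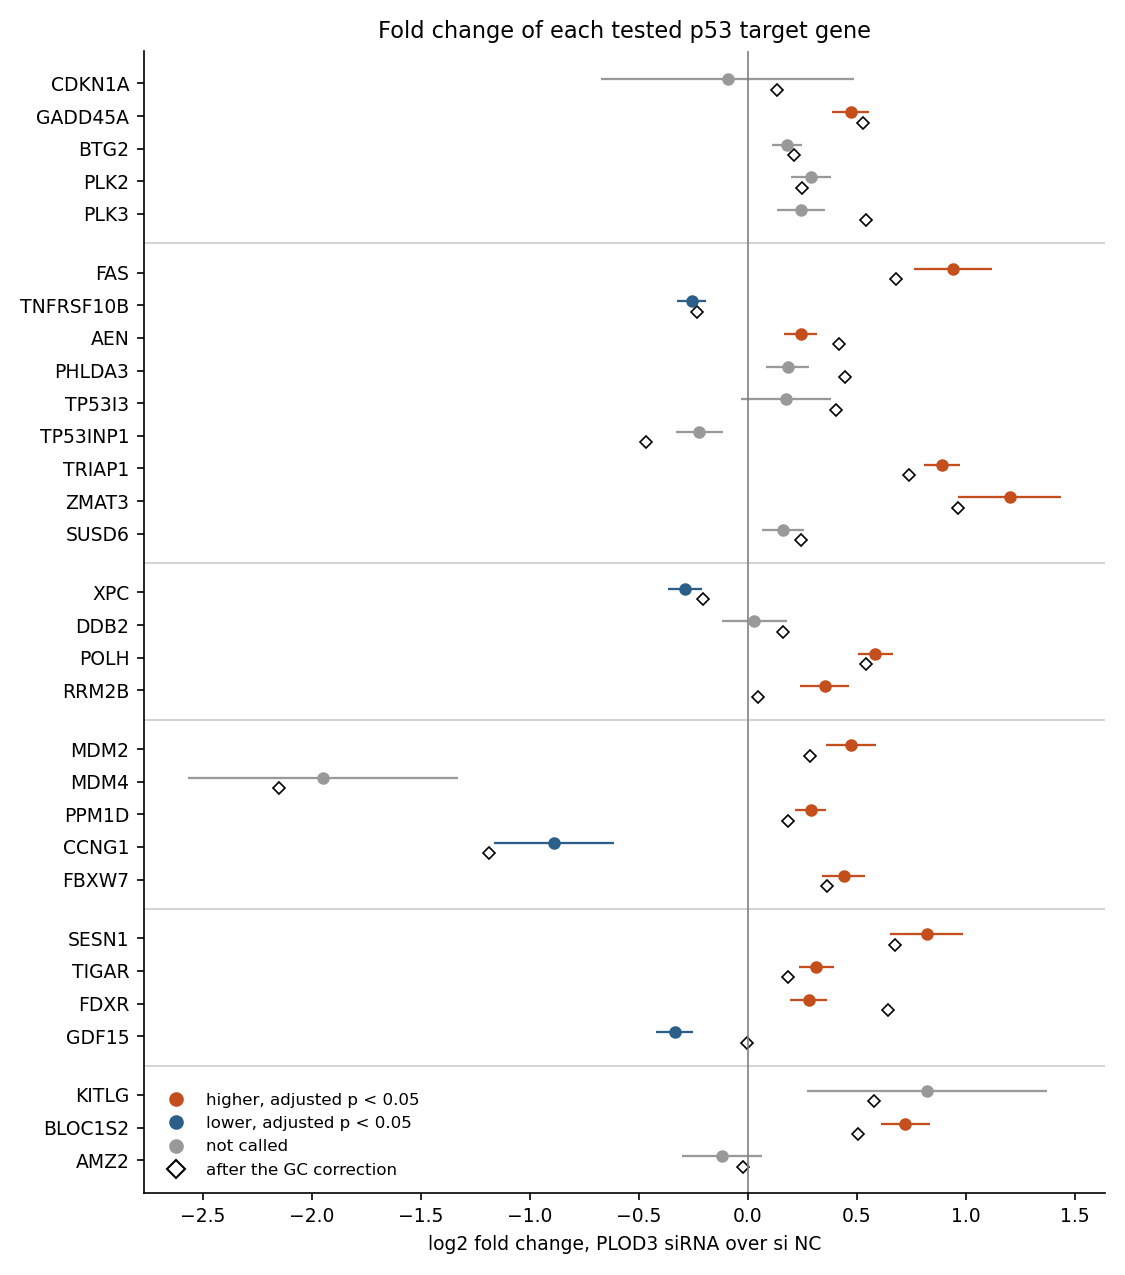
Log2 fold change of the 30 tested genes, PLOD3 siRNA over si NC, with bars of 1 SE from edgeR, grouped in the order arrest, death and survival, repair, feedback, metabolism and stress, and other. Filled circles are the reported values, coloured by call, and open diamonds the values after the GC correction. RRM2B and GDF15 move to near 0 after the correction, and FDXR, PLK3 and PHLDA3 move higher.

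CDKN1A, CCNG1, MDM4 and KITLG were the 4 members in which samples of a single group differed over 2-fold. Within PLOD3 siRNA these were CDKN1A and KITLG, and within si NC they were CCNG1, MDM4 and KITLG. Such jumps occurred in other genes as well. Over all genes tested, the highest sample was over 2-fold the lowest in 6.85% of genes within PLOD3 siRNA and 6.81% within si NC, and the median ratio was 1.20 in each group. Each library stood at least 2-fold above or below both others of its group in 183 to 208 genes in PLOD3 siRNA and 153 to 225 genes in si NC. PLOD3 siRNA replicate 2, with the high CDKN1A, was among them with 195 genes, and si NC replicate 1, with the low CCNG1 and MDM4, with 209.

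The fold changes of the members moved with GC content, as they did over the whole table. Transcript GC content of the members ran from 36.4% in RRM2B to 64.3% in FDXR. Across all tested genes the median log2 fold change was 0.28 in the quintile of genes with the lowest GC content and -0.33 in the quintile with the highest. The 14 members that rose had a median GC content of 43.9%, against 52.5% in the other tested members and 49.1% over all genes tested. After a per-sample correction for GC content 13 members were higher and 3 lower, while edgeR called 27.5% of all genes, 13.0% higher and 14.5% lower. Of the 14 that rose, 10 kept the call, and MDM2, PPM1D, TIGAR and RRM2B lost it (edgeR adjusted p = 0.0694, 0.0621, 0.0864 and 0.625).

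FDXR, PLK3, PHLDA3 and AEN, all rich in GC, had higher values after the correction. The GC-corrected log2 fold change was 0.64 for FDXR, 0.54 for PLK3, 0.45 for PHLDA3 and 0.42 for AEN, with edgeR adjusted p = 0.00335, 0.00797, 0.00868 and 0.00848. PLK3, PHLDA3 and BTG2 (adjusted p = 0.0432) were called higher under this correction and not without it. TP53INP1, with a low GC content, was called lower (log2 -0.47, edgeR adjusted p = 0.0165). Of the 4 members that fell, CCNG1 and TNFRSF10B kept the call, XPC lost it (adjusted p = 0.0725), and GDF15 was at a log2 of -0.00203 (edgeR adjusted p = 0.983). The median over the 30 members was 0.27 after the correction, beside 0.26 without it. With transcript length corrected as well, 17 members were higher and 2 lower, while 27.4% of all genes were called, 14.2% higher and 13.1% lower. Either correction takes the GC trend to be technical, which was not tested.

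**Figure D4:**
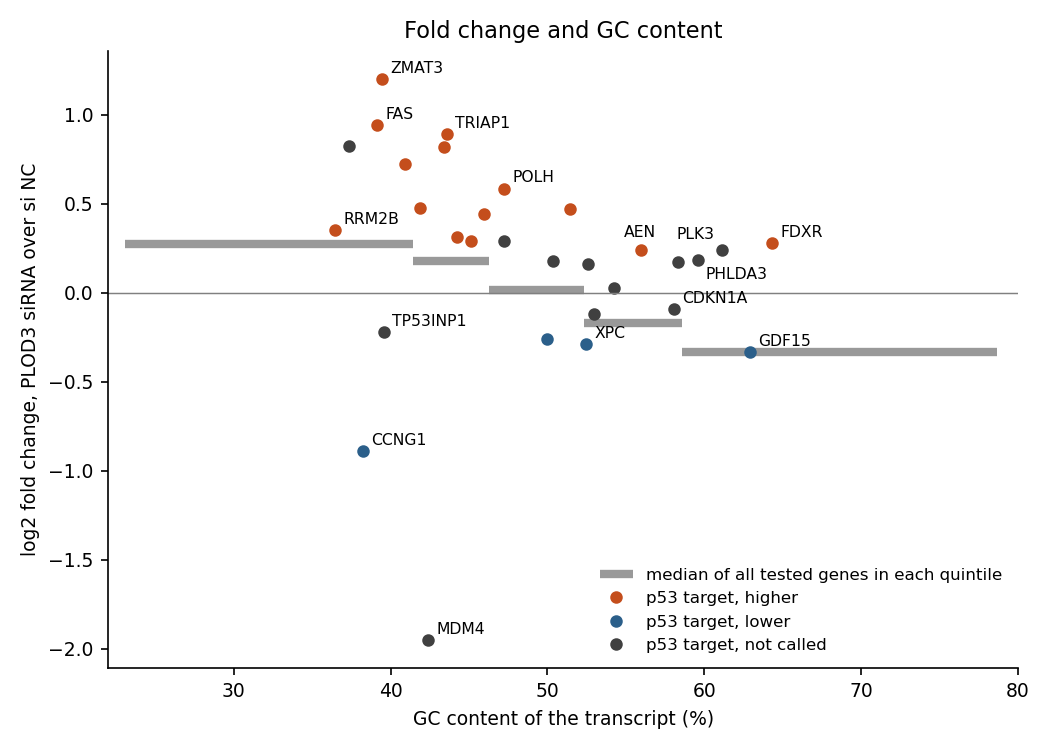
Log2 fold change, PLOD3 siRNA over si NC, against GC content of the transcript in percent. Points are the 30 tested members, coloured by call, and grey bars give the median of all tested genes in each quintile of GC content. The grey bars descend from 0.28 to -0.33, and AEN, PLK3, PHLDA3 and FDXR lie above the bar at their GC content.

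Reads of genes that overlap or share a start with a member can bear on its value, since no strand setting is given. XPC starts 216 bases from LSM3, a splicing gene on the other strand, which rose to 20.5 ± 2.02 FPKM in PLOD3 siRNA, against 10.8 ± 0.397 FPKM in si NC (SD, n = 3 each, edgeR adjusted p = 0.00302), whereas XPC fell. TRIAP1 starts 60 bases from GATC, which was at 10.8 ± 0.962 FPKM in PLOD3 siRNA and 9.06 ± 0.338 FPKM in si NC (SD, n = 3 each, edgeR adjusted p = 0.0682). FAS overlaps the start of ACTA2 on the other strand by 809 bases, and ACTA2 fell while FAS rose (ACTA2 log2 -0.51, edgeR adjusted p = 0.0423). The end of TNFRSF10B overlaps that of RHOBTB2 by 60 bases on the other strand, and RHOBTB2 fell by 1.12 on the log2 scale (edgeR adjusted p = 0.00182). POLH shares 15208 bases with GTPBP2 on the other strand, and GTPBP2 did not pass (log2 -0.10, edgeR adjusted p = 0.348). TP53INP1 lies inside NDUFAF6 on the other strand over its whole length, and NDUFAF6 stood at 2.06 ± 0.187 FPKM in PLOD3 siRNA and 1.74 ± 0.121 FPKM in si NC (SD, n = 3 each). How far reads were shared between these genes was not tested.

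The regulators of p53 gave no common direction. In a list of 20 such genes 18 were tested, with a median log2 fold change of 0.15. Of the 18, 3 rose and 2 fell, while 16.2% of all genes tested were higher and 19.3% lower. The damage kinases ATR (log2 0.69, edgeR adjusted p = 0.0116) and CHEK2 (log2 0.40, adjusted p = 0.0174) and the deubiquitinase USP28 (log2 0.36, adjusted p = 0.0263) rose. ATM, also on the list, was under the filter, at 1.03 to 1.24 FPKM in PLOD3 siRNA and 0.570 to 0.835 FPKM in si NC. In a fit with no filter ATM was higher (log2 0.67, edgeR adjusted p = 0.0236). PPP1R13L, or iASPP, an inhibitor of p53 (log2 -0.50, adjusted p = 0.0257), and the acetyltransferase EP300 (log2 -0.47, adjusted p = 0.0294) fell. With GC content corrected, PPP1R13L and EP300 no longer passed (edgeR adjusted p = 0.429 and 0.0620), nor did USP28 (adjusted p = 0.121).

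In another list of 32 p53 targets, 26 were tested, with a median log2 fold change of 0.08. Of the 26, 6 rose and 6 fell, while 16.2% of all genes tested were higher and 19.3% lower. After the GC correction 9 of the 26 were higher and 2, PERP and FUCA1, lower, against 13.0% and 14.5% of all genes. TNFRSF10A and TNFRSF10D, which bind TRAIL as TNFRSF10B does, rose. TNFRSF10A was at 14.2 ± 1.24 FPKM in PLOD3 siRNA and 8.91 ± 0.622 FPKM in si NC (SD, n = 3 each, edgeR adjusted p = 0.00397), and the decoy receptor TNFRSF10D at 26.9 ± 1.59 FPKM in PLOD3 siRNA and 19.4 ± 0.474 FPKM in si NC (SD, n = 3 each, edgeR adjusted p = 0.00372). FUCA1, a lysosomal fucosidase, fell to 10.9 ± 0.642 FPKM in PLOD3 siRNA, against 17.5 ± 0.615 FPKM in si NC (SD, n = 3 each, edgeR adjusted p = 0.00280). PERP, a desmosome protein linked to p53-dependent death, fell to 37.8 ± 0.188 FPKM in PLOD3 siRNA, against 56.2 ± 5.36 FPKM in si NC (SD, n = 3 each, edgeR adjusted p = 0.00437). The death effectors BAX and BBC3 did not pass (log2 -0.21 and -3.8e-05, edgeR adjusted p = 0.173 and 1.00). After the GC correction BBC3 stood at a log2 of 0.46 (edgeR adjusted p = 0.0168). The difference between this list and the 31 members was not tested.

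Genes that active p53 is known to lower, through p21 and the DREAM repressor complex, were mostly higher. Of 12 such cell cycle genes 8 rose and 0 fell in edgeR, while 16.2% of all genes tested were higher and 19.3% lower. This list too was chosen with earlier results of these data known. The median log2 fold change of the 12 was 0.46, and 0.36 after the GC correction. The count of lower genes among the 12 was also 0 at an unadjusted p under 0.05, and 0 in DESeq2 and limma. Cyclin A2 (CCNA2) was at 48.1 ± 0.850 FPKM in PLOD3 siRNA and 27.0 ± 0.773 FPKM in si NC (SD, n = 3 each, edgeR adjusted p = 0.00163). The spindle genes KIF23 (log2 0.68) and BUB1B (log2 0.49) and the kinase CDK1 (log2 0.67) also rose, with edgeR adjusted p = 0.00255, 0.00380 and 0.00634. In the single PLOD3 siRNA samples CCNA2 was at 48.9, 47.2 and 48.1 FPKM. How the genes of this list relate to the CDKN1A values of each sample was not tested.

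**Figure D5:**
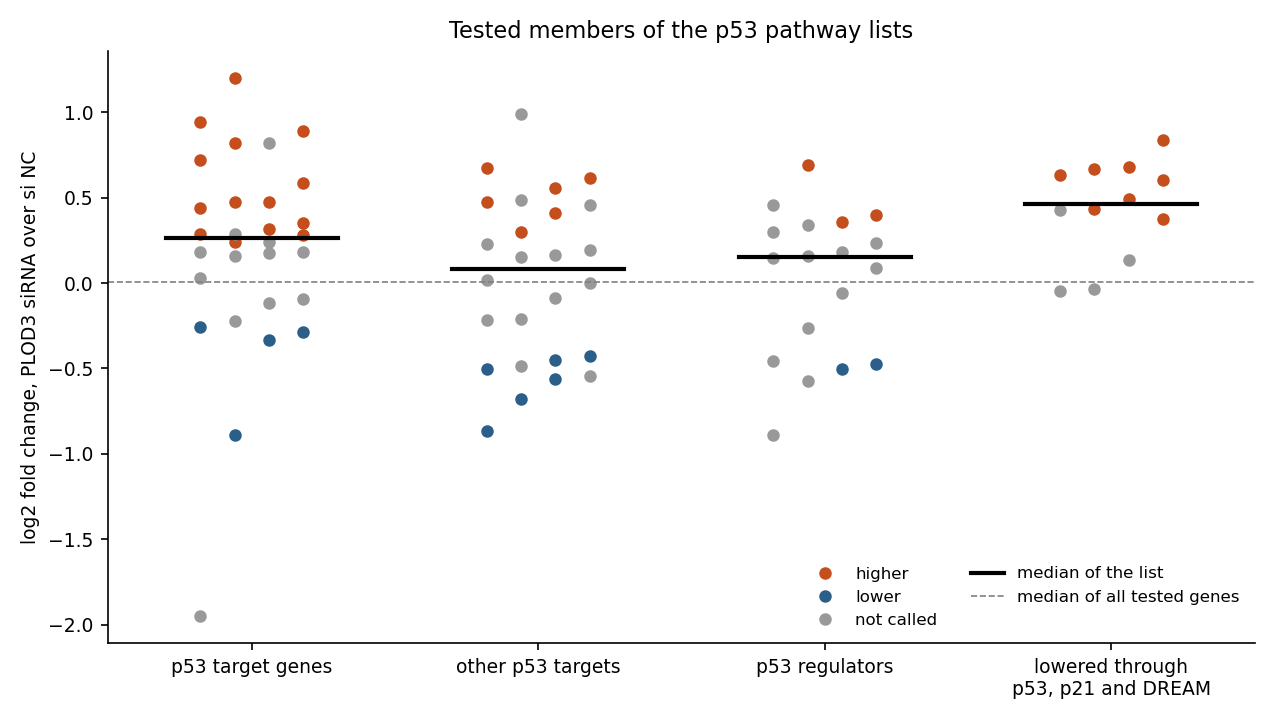
Log2 fold change, PLOD3 siRNA over si NC, of the tested genes in 4 lists, namely the p53 targets described here, other p53 targets, p53 regulators, and genes lowered through p53, p21 and DREAM. Points are genes coloured by call, black lines the medians of 0.26, 0.08, 0.15 and 0.46, and the dashed line the median of all tested genes.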

How the data were processed

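RNA was measured in 3 PLOD3 siRNA and 3 si NC samples, grouped by their titles. The deposited table holds FPKM, scaled to transcript length and depth, and estimated counts, deposited as whole numbers, per the file headers. Reads went through cutadapt 1.9, HISAT2 2.0.4 and StringTie 1.3.4d, the tools listed in the submitters' processing notes. The sources used here do not give the build, the strand setting or the counting step. Of the table's genes 96.3% were found by identifier in GENCODE v29 (GRCh38), and 99.8% of those overlapped their annotated position.

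Low counts piled up at multiples of 4, so counts seem to overstate read pairs. Counts were compared with edgeR 4.0.16 in R 4.3.3 (TMM, quasi-likelihood test, two-sided, all 6 samples, no covariate) over the 12000 genes that averaged 1 FPKM or more. FPKM are given as mean ± SD. The test was also run on simulated data. DESeq2 1.42.0 and limma 3.58.1 served as alternatives, beside other scalings and filters, a replicate block and leaving out each sample. The GC correction is a loess trend (span 0.5) of each sample's log2 CPM on GC content of the longest coding transcript, used as an offset. All 31 members had a GC value.

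Same-numbered samples of the groups did not deviate together, so numbers were not taken to pair samples. All members of the arrest, death and repair groups and all called members are given in every sample, the others by range or mean, and up to 4 called genes of each further list are named. A further gene is not reported here. BAX, BBC3, EP300 and MYC were named after their values were seen. The members and lists were chosen with earlier results of these data known.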

Additional observations from a re-analysis of the deposited data

How the results depend on the processing

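Over 18 alternative settings the members had 531 fitted values, of which 403 kept direction and side of the threshold, 102 lost a call, 19 gained one and 7 changed sign. With no filter on level 9 of 31 members (29.03%) were higher and 0 lower (5 lower at an unadjusted p under 0.05), while 4.49% of 32482 genes were higher and 6.29% lower. At a mean FPKM of at least 5, 5 of 21 members (23.8%) were higher and 4 (19.05%) lower, while 19.6% of 6095 genes were higher and 22.2% lower. The members called lower were 2 with limma on log2(FPKM + 0.1), TNFRSF10B and GDF15, and 2 with the GC and length correction, CCNG1 and TP53INP1, of which TP53INP1 had no call in the reported fit. Of all genes 18.1% were lower with that limma fit and 13.1% with the GC and length correction. The replicate block, where the numbers are not known to pair samples, called 10 members higher and 1 lower, GDF15. In that fit 12.3% of all genes were higher and 15.3% lower. The replicate block together with the GC correction called 11 members higher. It called 1 lower, TP53INP1, and none of the 4 members reported as lower, while 8.77% of all genes were higher and 10.1% lower. After each gene's group mean was subtracted, the deviations of same-numbered samples correlated at 0.0486, -0.0107 and -0.0230. Leaving out a sample in turn gave 7 to 10 members higher and 0 to 3 lower. The sign changes were all in genes that did not pass with all samples. The log2 fold change of CDKN1A was 0.13 after the GC correction, 0.083 after the GC and length correction, and -1.17 to 0.26 with a sample left out. That of DDB2 was -0.013 at a mean FPKM of at least 5 and -0.12 to 0.16 with a sample left out, and that of AMZ2 -0.26 to 0.014. The cause was not tested.

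Over all genes, 1192 were higher and 1354 lower at a mean FPKM of at least 5, and 1052 and 1210 with the replicate block and GC correction. Leaving out a sample gave 1083 to 1651 higher and 1509 to 2011 lower. Of the 18 p53 regulators tested, 6 were higher in DESeq2, 5 with library totals only and 5 with limma at either pseudocount. The count was 1 of 10 tested at a mean FPKM of at least 5, and 1 to 4 with a sample left out. Over these fits 9.03% to 19.6% of all genes were higher. For p53 regulators called lower the count was 0 with no filter (20 tested), with the GC correction and with the GC and length correction. It was 1 at a mean FPKM of at least 5, 1 with limma at either pseudocount, and 0 to 2 with a sample left out. Over these fits 6.29% to 22.2% of all genes were lower. Of the 26 other p53 targets tested, 9 were higher and 2 lower with the GC correction, and 9 and 2 with the GC and length correction. With the replicate block and GC correction 8 were higher and 3 lower. In the same order, 13.0%, 14.2% and 8.77% of all genes were higher and 14.5%, 13.1% and 10.1% lower.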
